A study of Mus musculus with 12 samples.

Results

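The lysosomal hydrolases, lysosomal membrane proteins and V-ATPase subunits were examined in immortalised mouse striatal cell lines used to model Huntington's disease. The genes were 41 named lysosome genes together with every gene whose symbol begins Atp6v or Atp6ap, and all probes of the deposited bead signal table annotated to them were taken. This gave 108 of 44505 probes, for 60 genes: 38 of the 41 lysosome genes and 22 V-ATPase genes. Probes above background (a detection p below 0.01) on 2 or more arrays were tested, which left 69 of the 108 probes, for 49 genes (34 lysosome genes and 15 V-ATPase genes), among 15224 probes and 8487 genes in all. The 11 genes with a probe but none tested were Ctsl, Ctss, Idua, Tfeb, Atp6v0a4, Atp6v0d2, Atp6v1b1, Atp6v1c2, Atp6v1e2, Atp6v1g3 and Atp6v1h. Gnptab, Ids and Ctsd were matched to no named probe.

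The lines come from mice homozygous for a huntingtin (Hdh) knock-in allele, with 109 CAG repeats in Hdh109/109 cells and 7 CAG repeats in Hdh7/7 cells. The 6 groups of 2 arrays were Hdh109/109 cells with DNRest, with empty vector and untransfected, and Hdh7/7 cells with DNRest, with empty vector and untransfected. In the study DNRest is a dominant-negative form of REST, a repressor of neuronal genes. The series asks how the line with the long repeat differs from the line with the short one, and the transfections add the question of what the construct changes in each. All cells were immortalised and grown in the same serum-containing medium, and the labels say neither which promoter drives the construct nor what share of cells took it up. Each genotype is 1 line, so genotype and any other difference between the lines cannot be told apart. Replicates are called biological in the design text, yet no label ties them to separate cultures. The p-values therefore reflect only how far these arrays differ, and that spread may be technical.

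Lysosomes are acidic organelles in which proteases, glycosidases, sulfatases and lipases break down material delivered by endocytosis and autophagy. Their acidity is made by the V-ATPase, a rotary proton pump with a cytosolic V1 sector that hydrolyses ATP and a membrane V0 sector that carries protons, and several of its subunits exist as paralogs with different tissue patterns. Loss of single lysosomal enzymes causes storage diseases that often affect neurons, and many lysosomal genes carry the E-box palindrome in their promoters, to which TFEB and related factors can bind.

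Promoter windows of 300 bases, from 250 before to 50 after a transcript start (RefSeq, GRCm38.p6), were held for 51 of the 60 genes. The letters CACGTG, an E-box that reads the same on both strands, were present in 15 of the 51, or 29.4%, against 8.09% of the 27025 genes with a window. The longer form TCACGTGA, which contains the E-box, was in 6 (11.8% against 1.12%), and the longer CLEAR element, which contains both, in 0 (against 0.37%). The genes with the E-box were Arsa, Atp6v0b, Atp6v0d1, Atp6v0e, Atp6v1a, Ctsa, Ctsf, Ctsl, Gaa, Gla, Glb1, Lamp1, Mcoln1, Naglu and Sgsh. Shown are the 3 of these E-box genes with the largest difference between the lines in the change with empty vector, described further down. The paralogs Atp6v0e and Atp6v0e2, of which 1 holds the E-box and the other does not, are also shown. All were chosen after their values were seen. Grn, with the largest such difference of all (1.39), holds no CACGTG in its window. Nor do Arsb, Ctsc, Lamp2, Lipa, Neu1, Psap and Tpp1, which were also called in that comparison. Capitals mark CACGTG, or TCACGTGA where the longer form is present, and each sequence runs 5′ to 3′ on the strand of its gene. The windows are chr15:89477375-89477674 (minus strand) for Arsa, chr11:101069844-101070143 (plus) for Naglu, chr8:105566015-105566314 (minus) for Atp6v0d1, chr17:26676146-26676445 (plus) for Atp6v0e and chr6:48537319-48537618 (plus) for Atp6v0e2.
Arsa: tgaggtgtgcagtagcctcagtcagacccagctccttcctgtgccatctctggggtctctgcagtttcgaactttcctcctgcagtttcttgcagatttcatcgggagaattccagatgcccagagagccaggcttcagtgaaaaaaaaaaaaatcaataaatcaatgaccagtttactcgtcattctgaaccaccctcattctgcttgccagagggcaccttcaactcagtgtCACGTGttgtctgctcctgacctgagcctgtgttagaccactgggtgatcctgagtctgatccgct
Naglu: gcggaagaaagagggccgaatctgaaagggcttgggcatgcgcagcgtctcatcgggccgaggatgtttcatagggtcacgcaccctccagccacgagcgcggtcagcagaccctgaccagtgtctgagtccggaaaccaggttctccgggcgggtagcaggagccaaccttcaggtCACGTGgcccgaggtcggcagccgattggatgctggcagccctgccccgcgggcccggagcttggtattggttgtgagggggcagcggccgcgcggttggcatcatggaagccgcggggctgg
Atp6v0d1: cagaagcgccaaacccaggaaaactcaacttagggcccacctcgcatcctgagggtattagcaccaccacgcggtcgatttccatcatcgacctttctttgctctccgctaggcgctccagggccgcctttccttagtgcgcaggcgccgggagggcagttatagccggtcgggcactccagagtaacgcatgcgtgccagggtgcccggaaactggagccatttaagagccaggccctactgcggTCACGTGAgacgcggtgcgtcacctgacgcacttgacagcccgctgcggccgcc
Atp6v0e: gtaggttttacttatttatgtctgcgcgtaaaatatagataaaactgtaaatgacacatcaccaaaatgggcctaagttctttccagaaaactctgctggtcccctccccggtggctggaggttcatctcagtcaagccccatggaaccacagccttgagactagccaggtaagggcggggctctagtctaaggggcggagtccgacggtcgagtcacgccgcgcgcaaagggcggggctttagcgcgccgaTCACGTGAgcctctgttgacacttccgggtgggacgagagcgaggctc
Atp6v0e2: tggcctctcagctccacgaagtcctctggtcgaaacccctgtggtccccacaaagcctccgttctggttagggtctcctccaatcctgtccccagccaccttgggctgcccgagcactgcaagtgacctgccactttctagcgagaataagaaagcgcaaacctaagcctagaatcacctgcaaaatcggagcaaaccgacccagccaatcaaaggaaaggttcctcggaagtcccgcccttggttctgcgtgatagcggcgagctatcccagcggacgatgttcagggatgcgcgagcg

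Counted with the start as base 1 and the base before it as -1, the letters CACGTG began at -16 in Arsa, -73 in Naglu, -3 in Atp6v0d1 and 4 in Atp6v0e. The window of Atp6v0e2 holds no CACGTG. A match is only a description of these letters.

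The arrays detected 10295 to 14370 of the 44505 probes, and 55 to 66 of the 108 lysosome and V-ATPase probes. Raw signal had a median of 161 on Hdh7/7 empty vector replicate 2 and 156 on Hdh109/109 untransfected replicate 2, against 104 on Hdh109/109 DNRest replicate 1 and 70.2 to 82.7 on the other 9. Counts are therefore also given without the first 2 of these. The probe of Htt, the gene that holds the repeat, was above background on 0 of 6 Hdh109/109 arrays and on 5 of 6 Hdh7/7 arrays, and the probe of Rest on 0 of 12. The source name gives the other genotype than the title on 6 arrays. The titles were used, and the 18 pairs of arrays of 1 title genotype but 2 source-name genotypes correlated at r = 0.959 to 0.992 over all probes tested, against 0.887 to 0.916 for arrays of different title genotypes. Of 8 striatal projection neuron genes with a probe, 6 (Ppp1r1b, Drd1, Drd2, Tac1, Rgs9 and Bcl11b) were above background on 0 arrays, and Pde10a and Penk were detected.

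The line comparison was made in each transfection state and over the average of the 3 states. Over that average the cysteine cathepsins and several glycosidases were higher in Hdh109/109 cells, and most V-ATPase genes that passed the test were lower. At an adjusted p under 0.05 (limma, two-sided, adjusted over all 15224 probes), of the 69 probes 26 were higher and 17 lower, 62.3% in all, against 57.7% of all probes tested (29.5% higher and 28.2% lower). Per gene, by its brightest probe, 21 of 49 were higher and 12 lower in Hdh109/109 cells, while 60.9% of all genes were called, and the median log2 difference was 0.14, against -0.02 over all 8487 genes. The proteases gave 7 higher and 0 lower of 8, the glycosidases and sulfatases 9 higher and 2 lower of 13, and the V-ATPase genes 2 higher and 8 lower of 15. Their median log2 differences were 1.06, 0.45 and -0.35. Ctsf, Ctsh, Ctsk and Ctsz entered the test only through Hdh109/109 arrays, and Atp6v0e2, Atp6v1g2 and Galc only through Hdh7/7 arrays. The direction of their calls was thus largely set by the detection filter. Of the proteases detected on all 12 arrays, Ctsb, Ctsc and Tpp1 were called higher and Ctsa was not called. Of the lipid hydrolases and saposins 1 of 5 was higher (Asah1), and of the lysosomal membrane proteins 1 was higher (Lamp1) and 2 lower (Scarb2 and Cd63) of 5. With arrays scaled to a common median in place of quantiles, the median of all probes shifted by -0.12 and the split became 21 probes higher and 24 lower, with medians of 0.86 for the proteases, 0.31 for the glycosidases and sulfatases and -0.58 for the V-ATPase genes. In that scaling the median of all 49 genes was -0.01, Asah1 and M6pr turned to the other sign, and Lamp1, Arsb and Atp6v1b2 lost their calls. Without the 2 arrays of highest background 23 probes were higher and 19 lower.

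Within single states the split between higher and lower differed. Hdh109/109 cells without transfection had 8 probes higher and 20 lower (40.6%, against 35.6% of all probes tested, 17.6% higher and 18% lower). With empty vector 27 were higher and 9 lower (52.2% against 43.2%, of which 22.9% higher and 20.3% lower), and with DNRest 26 were higher and 8 lower (49.3% against 36.8%, of which 18.2% higher and 18.6% lower). Per gene 8 were higher and 16 lower of 49 untransfected (39% of all genes called), 20 and 8 with empty vector (46.3%), and 21 and 5 with DNRest (39.2%, of which 19.9% higher). The gene medians were -0.19 untransfected, 0.34 with empty vector and 0.35 with DNRest, against -0.01, 0.01 and -0.02 over all genes. Under median scaling the splits were 5 higher and 27 lower untransfected, 21 and 18 with empty vector, and 23 and 15 with DNRest. In that scaling the all-probe median moved by -0.21 with empty vector and by -0.11 with DNRest. Without the 2 arrays of highest background they were 5 and 16, 26 and 4, and 26 and 8. The untransfected total of 28 fell to 13 without Hdh7/7 untransfected replicate 2, to 17 without Hdh7/7 untransfected replicate 1 or Hdh109/109 untransfected replicate 1, and to 18 without Hdh109/109 untransfected replicate 2. The empty vector total of 36 was 19 when its 4 arrays were fitted alone. The share of all probes called in the same run is not set beside the counts of these alternative runs. They therefore do not tell a loss of calls in these genes from a general one.

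Across the states, 8 genes were higher in Hdh109/109 cells in all 3 (16.3%, against 10.2% of all genes): Ctsb, Ctsf, Ctsh, Ctsk, Ctsz, Glb1, Man2b1 and Sgsh. Another 5 were lower in all 3 (10.2% against 9.98%): Atp6v0e2, Atp6v1d, Atp6v1g2, Galc and Scarb2. Both shares include genes that passed the detection filter only through the brighter line. These were Ctsf, Ctsh, Ctsk and Ctsz among the higher, and Atp6v0e2, Atp6v1g2 and Galc among the lower. Their direction was largely set by that filter. Calls in opposite directions between states were made for Gaa, Grn and Lipa (6.12% against 1.67% of all genes). Under median scaling Grn lost its empty vector and DNRest calls, and Lipa lost its DNRest call. Gaa lost its untransfected call when the untransfected groups were fitted alone. The share of all genes with opposite calls in those runs is not given, so nothing is concluded from 6.12% against 1.67%. A further 11 of the 49 genes were called in no state (22.4% against 36.1%). In every alternative that tested them, 12 of the 24 genes called untransfected, 14 of the 28 with empty vector, 18 of the 26 with DNRest and 28 of the 33 on average kept their calls. Ctsb, Ctsh, Ctsk, Ctsz and Sgsh kept the higher call, and Atp6v0e2 and Atp6v1g2 the lower one, in all 3 states in every alternative that tested them. The filter on probes detected on all 12 arrays left out Atp6v0e2, Atp6v1g2, Ctsf, Ctsh, Ctsk, Ctsz, Galc and Manba.

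**Figure D1:**
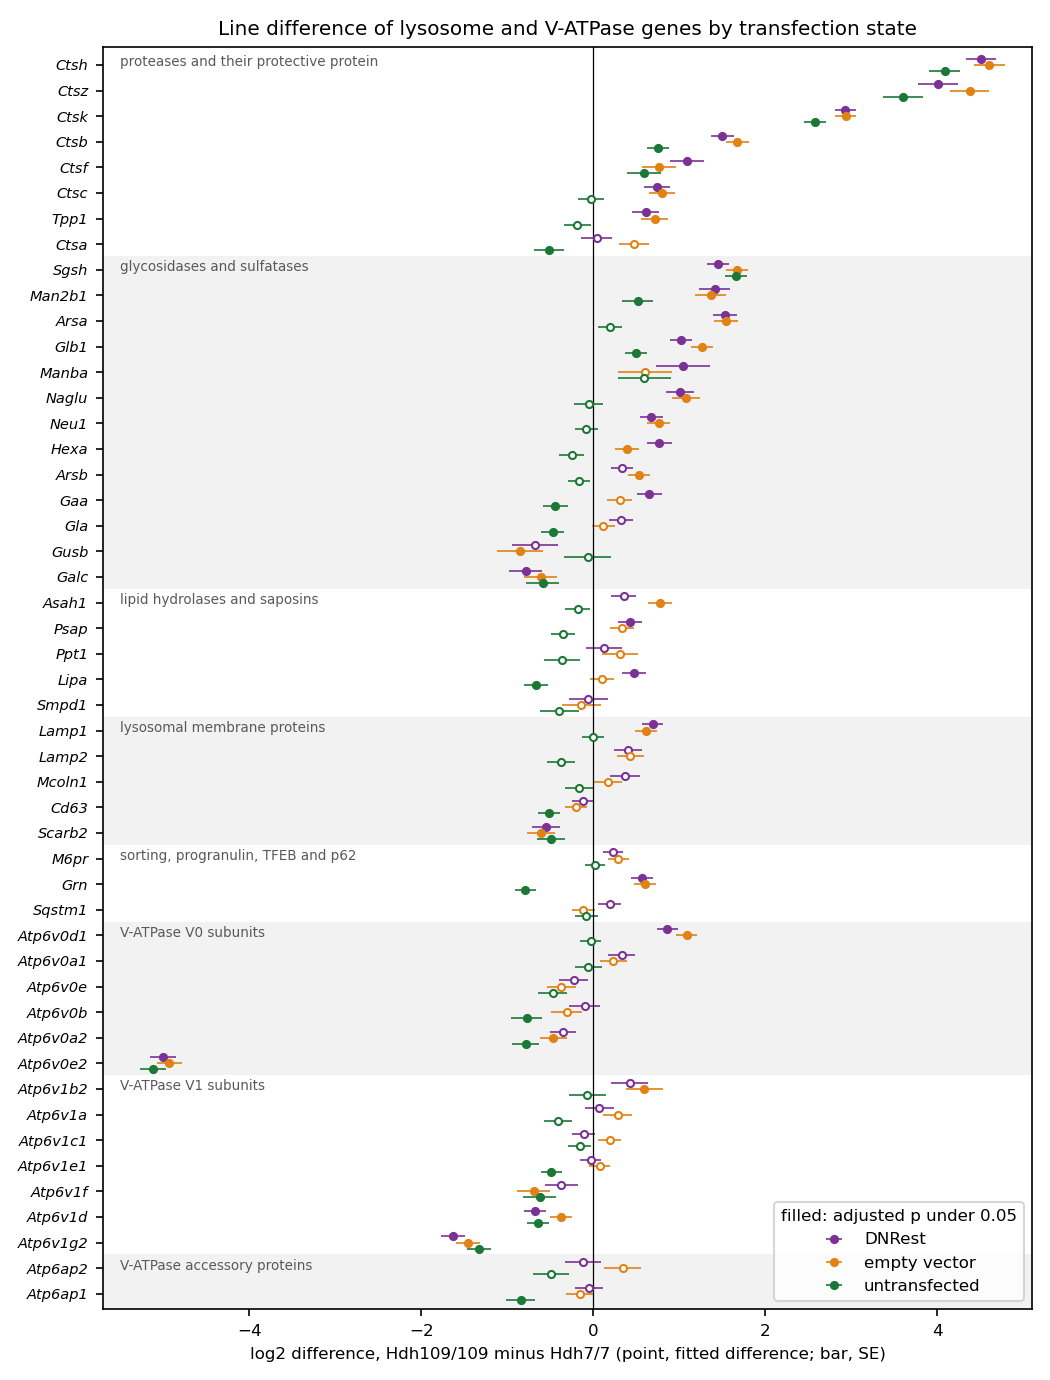
Fitted log2 difference, Hdh109/109 minus Hdh7/7, of the 49 tested genes (rows, grouped by role) with DNRest, with empty vector and untransfected (colours); bars are SE and filled points have an adjusted p under 0.05. Ctsh, Ctsz and Ctsk lie far to the right and Atp6v0e2 far to the left in all 3 states, and the medians over the 49 genes are 0.35, 0.34 and -0.19 in those states.

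Among the proteases, Ctsh, a cysteine cathepsin with aminopeptidase activity, was detected in Hdh109/109 cells only. On the normalised log2 scale, replicate 1 and 2 of each group in turn, Ctsh read 9.33 and 9.38 with DNRest, 9.63 and 9.09 with empty vector and 9.07 and 9.07 untransfected in Hdh109/109 cells, against 4.87 and 4.84, 4.78 and 4.73, and 5.13 and 4.85 in those states of Hdh7/7 cells. It was above background on all 6 Hdh109/109 arrays and on 0 Hdh7/7 arrays, so only a bound holds: at least 9.77-fold higher with DNRest, 7.99-fold with empty vector and 9.26-fold untransfected (limma, adjusted p = 6.31e-08, 4.78e-08 and 1.15e-07). The bound sets the bright group's mean against, on each dim array, the lowest signal among detected probes or the probe's own signal, whichever is higher. Ctsz, a carboxypeptidase cathepsin, read 9.08 and 9.28 with DNRest, 9.44 and 9.34 with empty vector and 9.50 and 9.46 untransfected in Hdh109/109 cells, against 5.09 and 5.25, 5.38 and 4.65, and 5.67 and 6.09 in those states of Hdh7/7 cells. Its arrays did not overlap between the lines. Untransfected it was called higher in Hdh109/109 cells (limma, adjusted p = 1.56e-06), but only 1 of the 2 Hdh7/7 arrays was above background, so the size is not given. With transfection Ctsz was not above background in Hdh7/7 cells, and the bounds for Hdh109/109 cells were at least 8.65-fold higher with DNRest and 8.16-fold with empty vector. Ctsk, a collagen-degrading cathepsin best known from osteoclasts, read 7.62 and 7.79 with DNRest, 8.07 and 8.09 with empty vector and 7.39 and 7.54 untransfected in Hdh109/109 cells, against 4.83 and 4.72, 5.21 and 5.09, and 4.88 and 4.89 in those states of Hdh7/7 cells. It too was detected on the 6 Hdh109/109 arrays and on 0 Hdh7/7 arrays, and its bounds were at least 3.10-fold higher with DNRest, 3.30-fold with empty vector and 3.04-fold untransfected. Ctsh, Ctsz and Ctsk passed the detection filter only through Hdh109/109 arrays. The direction of their calls was thus largely set by that filter, and nothing is concluded from their p-values.

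Ctsb, a widely expressed endopeptidase and dipeptidase, read 13.28 and 13.35 with DNRest, 13.47 and 13.64 with empty vector and 13.26 and 13.28 untransfected in Hdh109/109 cells, against 11.76 and 11.86, 11.86 and 11.90, and 12.63 and 12.40 in those states of Hdh7/7 cells. All Hdh109/109 arrays lay above all Hdh7/7 arrays, and the average difference was 1.31 ± 0.075 (SE, limma adjusted p = 2.51e-07). Ctsf, another cysteine cathepsin, read 6.82 and 6.72 with DNRest, 7.02 and 6.70 with empty vector and 6.05 and 6.70 untransfected in Hdh109/109 cells, against 5.61 and 5.75, 6.09 and 6.11, and 5.75 and 5.82 in those states of Hdh7/7 cells. It was detected on the 6 Hdh109/109 arrays but on 1 of 6 Hdh7/7 arrays (with empty vector). Against the background level it was at least 1.63-fold higher in Hdh109/109 than in Hdh7/7 cells with DNRest and at least 1.43-fold higher untransfected (limma, adjusted p = 0.0022 and 0.0437), and with empty vector its difference rests on 1 Hdh7/7 array above background. Ctsf passed the detection filter only through Hdh109/109 arrays, so nothing is concluded from its p-values. Tpp1, a tripeptidyl peptidase lost in a childhood storage disease, read 9.03 and 9.06 with DNRest, 9.23 and 9.11 with empty vector and 9.07 and 8.91 untransfected in Hdh109/109 cells, against 8.45 and 8.41, 8.26 and 8.65, and 9.29 and 9.07 in those states of Hdh7/7 cells. The untransfected groups of Tpp1 overlapped, with a difference of -0.19 ± 0.16 (adjusted p = 0.394), while Hdh109/109 cells were higher by 0.61 ± 0.16 with DNRest and 0.71 ± 0.16 with empty vector. Ctsa, the protective protein that stabilises lysosomal galactosidase and neuraminidase, read 7.85 and 7.81 with DNRest, 8.08 and 8.25 with empty vector and 7.24 and 7.82 untransfected in Hdh109/109 cells, against 7.78 and 7.81, 7.62 and 7.76, and 8.01 and 8.08 in those states of Hdh7/7 cells. By this brightest probe, its only line call was untransfected, lower in Hdh109/109 cells, at -0.51 ± 0.18 (adjusted p = 0.0469). A second Ctsa probe differed by -0.98 on average and was called lower.

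Markers of other cell types were read on the same arrays, since several cathepsins are abundant in macrophages, osteoclasts and fibroblasts. Of 10 microglia and macrophage genes with a probe, 1 (Cd14) was detected on at least 2 arrays in Hdh109/109 cells and 0 in Hdh7/7 cells, and the other 9 (Adgre1, Aif1, C1qa, C1qb, Cx3cr1, Itgam, Ptprc, Trem2 and Tyrobp) were detected on 0 arrays. Their summed raw signal was 702 to 1522 on Hdh109/109 arrays, against 638 to 1548 on Hdh7/7 arrays. Of the osteoclast genes 0 of 5 were detected, of the oligodendrocyte genes 0 of 6 and of the endothelial genes 0 of 5. Of 6 astrocyte genes with a probe, 2 (Gja1 and Slc1a3) were detected in both lines. Aqp4, Gfap, S100b and Slc1a2 were detected on 0 arrays. The summed raw signal of the astrocyte genes was 8998 to 12825 on Hdh109/109 arrays, against 6812 to 10034 on Hdh7/7 arrays. Of 7 fibroblast and pericyte genes, 6 were detected in Hdh109/109 cells and 3 in Hdh7/7 cells, and their summed raw signal was 8913 to 17417 on Hdh109/109 arrays, against 699 to 1587 on Hdh7/7 arrays. Lum was never detected. The part of this difference in the cathepsin levels was not tested, and in bulk RNA fewer cells of a type and less RNA per cell cannot be told apart.

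**Figure D2:**
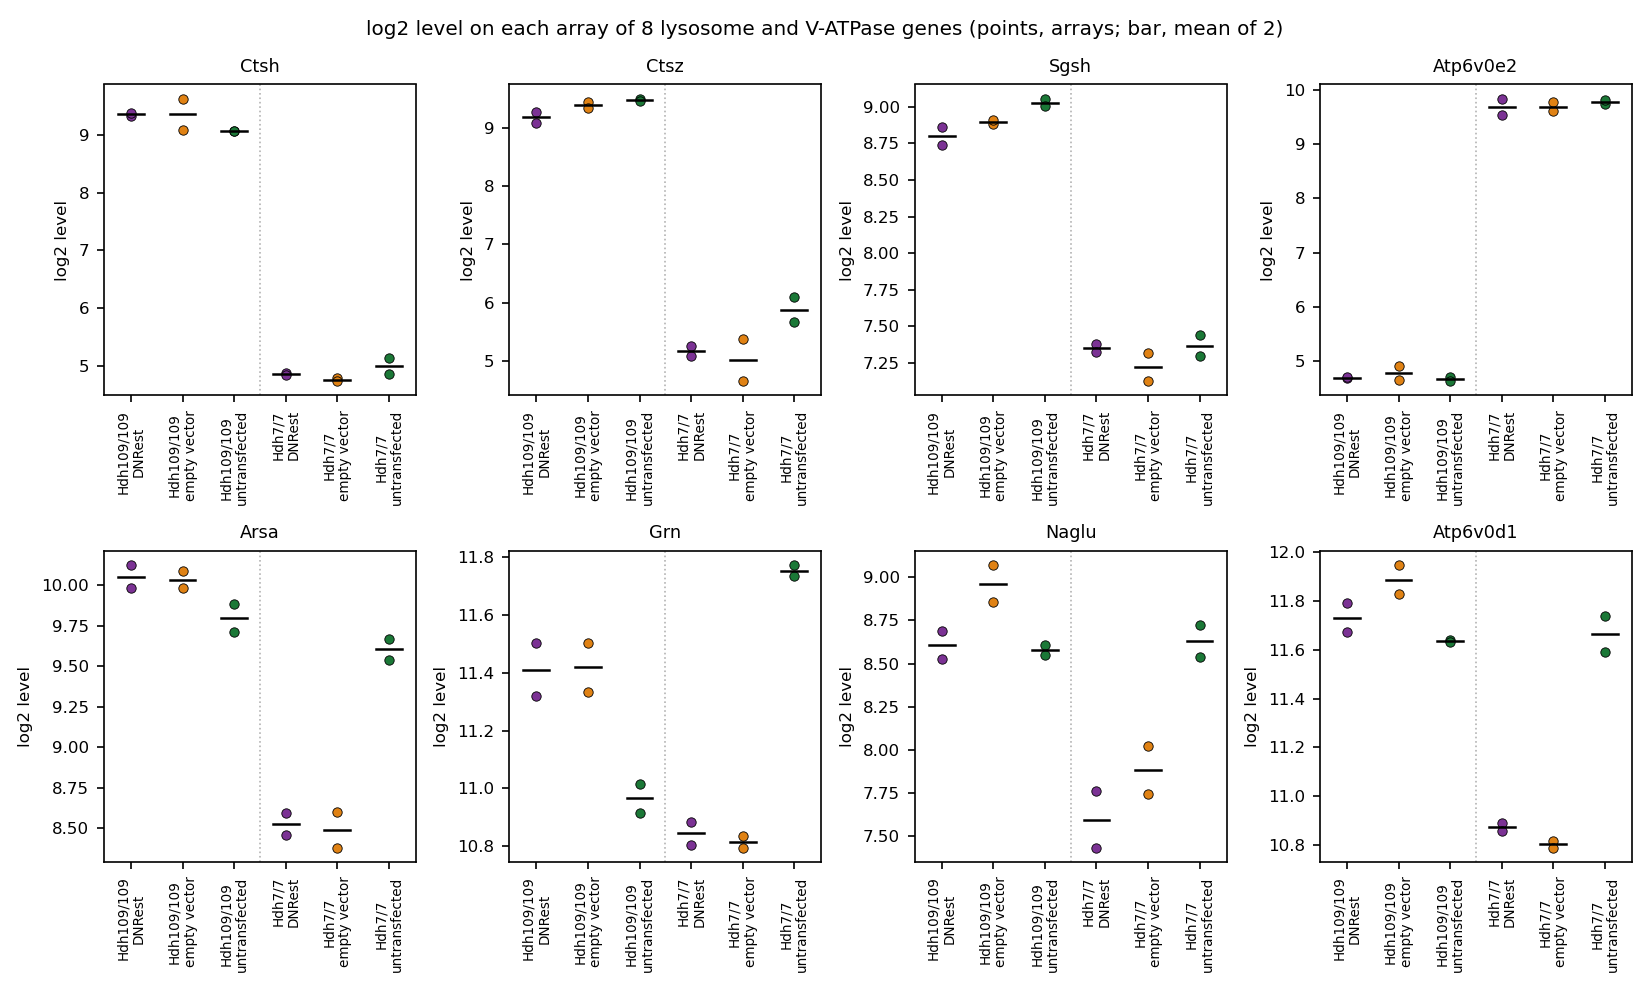
Log2 level of 8 genes on each array (points; horizontal bars are means of 2), with Hdh109/109 groups left of the dotted line and Hdh7/7 groups right of it. Ctsh, Ctsz and Sgsh stand higher and Atp6v0e2 lower on every Hdh109/109 array, whereas Arsa, Grn, Naglu and Atp6v0d1 are highest among Hdh7/7 arrays in the untransfected pair.

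Among the enzymes of glycan breakdown, Sgsh, the sulfamidase of heparan sulfate, read 8.86 and 8.74 with DNRest, 8.88 and 8.91 with empty vector and 9.06 and 9.00 untransfected in Hdh109/109 cells, against 7.38 and 7.33, 7.13 and 7.32, and 7.30 and 7.44 in those states of Hdh7/7 cells. Every Hdh109/109 array was above every Hdh7/7 array, and the difference was 1.45 ± 0.13 with DNRest, 1.67 ± 0.13 with empty vector and 1.66 ± 0.13 untransfected (SE, limma adjusted p = 1.69e-05, 5.15e-06 and 6.05e-06). Man2b1, the lysosomal alpha-mannosidase, read 10.79 and 10.81 with DNRest, 10.73 and 10.95 with empty vector and 10.62 and 10.52 untransfected in Hdh109/109 cells, against 9.64 and 9.14, 9.50 and 9.45, and 9.91 and 10.19 in those states of Hdh7/7 cells. Its groups did not overlap, and the average difference was 1.10 ± 0.10 (adjusted p = 9.86e-06). Glb1, the lysosomal beta-galactosidase, read 10.13 and 10.23 with DNRest, 10.35 and 10.52 with empty vector and 10.03 and 10.15 untransfected in Hdh109/109 cells, against 9.14 and 9.18, 9.26 and 9.08, and 9.61 and 9.59 in those states of Hdh7/7 cells. It too was higher on every Hdh109/109 array, by 0.93 ± 0.074 on average (adjusted p = 3.15e-06). Under median scaling the untransfected calls of Ctsf, Glb1 and Man2b1 were lost.

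Arsa, the sulfatase of myelin sulfatides, read 9.98 and 10.13 with DNRest, 9.99 and 10.09 with empty vector and 9.71 and 9.89 untransfected in Hdh109/109 cells, against 8.60 and 8.46, 8.60 and 8.38, and 9.54 and 9.67 in those states of Hdh7/7 cells. Its untransfected groups lay close together, with a difference of 0.19 ± 0.14 (adjusted p = 0.316), whereas with DNRest and empty vector the Hdh109/109 arrays were higher by 1.53 ± 0.14 and 1.55 ± 0.14 (adjusted p = 2.14e-05 and 1.72e-05). Naglu, which removes N-acetylglucosamine from heparan sulfate, read 8.53 and 8.69 with DNRest, 8.86 and 9.07 with empty vector and 8.61 and 8.55 untransfected in Hdh109/109 cells, against 7.76 and 7.43, 8.02 and 7.75, and 8.72 and 8.54 in those states of Hdh7/7 cells. Its untransfected groups overlapped, and it was higher in Hdh109/109 cells by 1.01 ± 0.16 with DNRest and 1.08 ± 0.16 with empty vector. Hexa, the alpha chain of beta-hexosaminidase, read 8.38 and 8.67 with DNRest, 8.36 and 8.29 with empty vector and 8.60 and 8.40 untransfected in Hdh109/109 cells, against 7.67 and 7.85, 7.98 and 7.89, and 8.76 and 8.74 in those states of Hdh7/7 cells. The Hdh109/109 arrays were higher by 0.77 ± 0.14 with DNRest and 0.39 ± 0.14 with empty vector (adjusted p = 0.00237 and 0.0498), and the untransfected difference was -0.25 ± 0.14 (adjusted p = 0.206).

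Gaa, the acid alpha-glucosidase deficient in Pompe disease, read 10.03 and 10.16 with DNRest, 9.90 and 10.03 with empty vector and 9.53 and 9.57 untransfected in Hdh109/109 cells, against 9.54 and 9.35, 9.52 and 9.80, and 10.07 and 9.92 in those states of Hdh7/7 cells. In Hdh109/109 cells it was higher with DNRest by 0.65 ± 0.15 and lower untransfected, at -0.44 ± 0.15 (limma adjusted p = 0.00642 and 0.0384), without overlap in either state. The untransfected call of Gaa was lost when its 4 arrays were fitted alone.

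Galc and Gusb were the 2 enzymes of this group called lower in Hdh109/109 cells on average. Galc, the galactosylceramidase whose loss causes Krabbe disease, read 5.49 and 5.60 with DNRest, 5.61 and 5.86 with empty vector and 5.67 and 5.60 untransfected in Hdh109/109 cells, against 6.62 and 6.04, 6.37 and 6.32, and 6.36 and 6.08 in those states of Hdh7/7 cells. It was above background on 1 of 6 Hdh109/109 arrays and 4 of 6 Hdh7/7 arrays, and the lines did not overlap. In Hdh109/109 cells it was at least 1.28-fold lower with DNRest and 1.19-fold lower untransfected, where it was not above background. The bound with DNRest rests on 1 Hdh7/7 array above background. A second Galc probe differed by -0.18 and was not called. Gusb, beta-glucuronidase, read 7.37 and 7.44 with DNRest, 7.49 and 6.70 with empty vector and 7.34 and 7.44 untransfected in Hdh109/109 cells, against 7.84 and 8.33, 7.93 and 7.96, and 7.18 and 7.73 in those states of Hdh7/7 cells. Its arrays overlapped over the 3 states, the average difference was -0.53 ± 0.16 (adjusted p = 0.014), and a second Gusb probe differed by 0.01.

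Of the lipid-handling genes, Lipa, the acid lipase for cholesteryl esters, had calls in opposite directions between states. Its DNRest call was lost under median scaling. Lipa read 9.80 and 9.83 with DNRest, 9.59 and 9.86 with empty vector and 9.86 and 9.66 untransfected in Hdh109/109 cells, against 9.42 and 9.27, 9.62 and 9.63, and 10.48 and 10.38 in those states of Hdh7/7 cells. In Hdh109/109 cells it was higher with DNRest by 0.47 ± 0.14 and lower untransfected, at -0.67 ± 0.14 (adjusted p = 0.0245 and 0.00433), and neither pair of groups overlapped. Asah1, acid ceramidase, read 13.02 and 12.96 with DNRest, 13.26 and 13.60 with empty vector and 12.76 and 12.93 untransfected in Hdh109/109 cells, against 12.59 and 12.69, 12.66 and 12.65, and 13.08 and 12.98 in those states of Hdh7/7 cells. It was higher in Hdh109/109 cells with empty vector, by 0.77 ± 0.14 (adjusted p = 0.00201), and not called in the other states. Lamp2, a main membrane glycoprotein of lysosomes, read 12.21 and 12.27 with DNRest, 12.24 and 12.69 with empty vector and 12.24 and 12.24 untransfected in Hdh109/109 cells, against 11.91 and 11.76, 12.00 and 12.08, and 12.71 and 12.52 in those states of Hdh7/7 cells. It was not called on average (0.15 ± 0.093, adjusted p = 0.186), but another of its 3 tested probes differed by 0.70 and was called higher. Scarb2, the membrane protein that carries glucocerebrosidase to lysosomes, read 8.04 and 8.06 with DNRest, 7.91 and 8.21 with empty vector and 8.44 and 8.36 untransfected in Hdh109/109 cells, against 8.43 and 8.77, 8.62 and 8.72, and 9.02 and 8.77 in those states of Hdh7/7 cells. It was lower in Hdh109/109 cells in each state, on average, at -0.55 ± 0.094 (adjusted p = 0.000633), with no overlap within a state.

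Grn encodes progranulin, a secreted and lysosomal protein whose loss causes frontotemporal dementia. Grn read 11.32 and 11.50 with DNRest, 11.33 and 11.50 with empty vector and 10.92 and 11.02 untransfected in Hdh109/109 cells, against 10.88 and 10.80, 10.79 and 10.83, and 11.74 and 11.77 in those states of Hdh7/7 cells. Untransfected, it was lower in Hdh109/109 cells, at -0.79 ± 0.13, whereas it was higher by 0.57 ± 0.13 with DNRest and 0.61 ± 0.13 with empty vector (limma, adjusted p = 0.000978, 0.00645 and 0.0039). The groups did not overlap in any state. Under median scaling the DNRest and empty vector differences of Grn were 0.31 and 0.28 and were not called, and the untransfected one was -0.95. The DNRest difference of Lipa was 0.33 in that scaling and not called. The empty vector call of Grn was also lost when its 4 arrays were fitted alone. Sqstm1, the autophagy receptor p62, had log2 means of 11.40 in Hdh109/109 cells and 11.40 in Hdh7/7 cells over the 3 states and was called in no comparison.

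Among the V0 subunits, Atp6v0e2 was detected in Hdh7/7 cells only. Atp6v0e2 encodes a paralog of the small membrane subunit e, and read 4.68 and 4.70 with DNRest, 4.65 and 4.90 with empty vector and 4.69 and 4.62 untransfected in Hdh109/109 cells, against 9.54 and 9.85, 9.62 and 9.78, and 9.74 and 9.81 in those states of Hdh7/7 cells. It was above background on 0 Hdh109/109 arrays and on 6 Hdh7/7 arrays. The bound was at least 13.1-fold lower in Hdh109/109 cells with DNRest, 15.3-fold with empty vector and 14.0-fold untransfected (limma, adjusted p = 1.33e-08, 1.26e-08 and 9.52e-09). Atp6v0e2 passed the detection filter only through Hdh7/7 arrays. The direction of its calls was thus largely set by that filter, and nothing is concluded from these p-values. A second, dimmer Atp6v0e2 probe was also called lower on average, with a fitted difference of -1.36 and a bound of at least 1.04-fold. Its paralog Atp6v0e read 11.74 and 11.68 with DNRest, 11.70 and 11.22 with empty vector and 11.42 and 11.59 untransfected in Hdh109/109 cells, against 11.93 and 11.95, 11.93 and 11.73, and 11.88 and 12.08 in those states of Hdh7/7 cells. Atp6v0e was detected on all 12 arrays, was called in no single state and was lower in Hdh109/109 cells, at -0.36 ± 0.10 on average (adjusted p = 0.0109).

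The within-array log2 difference between paralogs was compared between the lines, which sets no probe's level against another's but asks whether both genes differed by the same amount. Line labels were permuted within each state in an exact two-sided test over every arrangement, whose smallest possible p is 0.00926, and p was adjusted over the 6 of 14 pairs in which both genes were tested. For Atp6v0e minus Atp6v0e2 the change, Hdh109/109 minus Hdh7/7, was 4.66 (exact p = 0.00926, adjusted 0.0111). The fitted line difference was -0.36 for Atp6v0e and -5.02 for Atp6v0e2, which is no bound since Atp6v0e2 was at background in Hdh109/109 cells. For Atp6v0a1 minus Atp6v0a2 it was 0.70, for Lamp1 minus Lamp2 0.28, for Ctsb minus Ctsz -2.68 and for Arsa minus Arsb 0.85, each with the same exact p. The shift with Ctsz is likewise no measured size, since Ctsz was above background on 1 of 6 Hdh7/7 arrays. Atp6v0e2 passed the detection filter only through Hdh7/7 arrays and Ctsz only through Hdh109/109 arrays. The p-values of these pairs were thus largely fixed in advance, and nothing is concluded from them. A second Lamp2 probe differed between the lines by 0.70 and a second Atp6v0a1 probe by -0.35, both called, so the shifts of those pairs hold for the brightest probes only. For Atp6ap1 minus Atp6ap2 it was -0.26 (exact p = 0.12), and under median scaling -0.53 (exact p = 0.00926). Pairs with Atp6v0d2, Atp6v1b1, Atp6v1c2 or Atp6v1e2 could not be compared, since those genes were not above background.

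**Figure D3:**
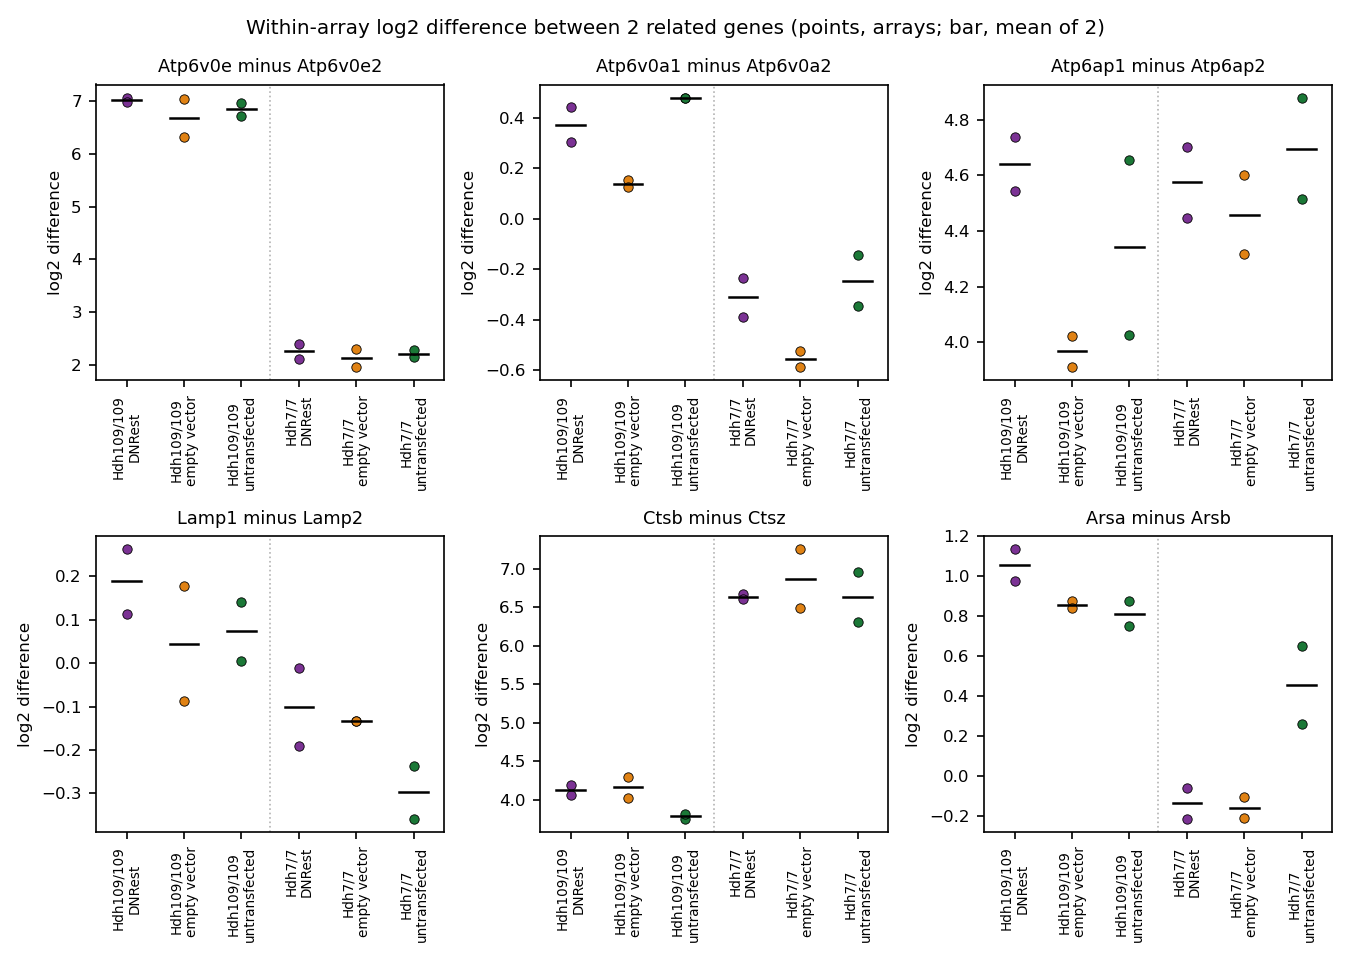
Within-array log2 difference between 2 related genes on each array (points; bars are means of 2), Hdh109/109 groups left of the dotted line. Only the shift between the lines can be read, because the height of each panel also depends on the probes. The shift is 4.66 for Atp6v0e minus Atp6v0e2, which is no measured size since Atp6v0e2 was at background in Hdh109/109 cells. Over all 12 arrays the lines overlap for Atp6ap1 minus Atp6ap2 and for Lamp1 minus Lamp2.

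By their brightest probes, the other V0 subunits tested were detected on all 12 arrays. Atp6v0a2, a variant of the large proton-path subunit a found in the Golgi and endosomes, read 9.54 and 9.44 with DNRest, 9.32 and 9.69 with empty vector and 9.38 and 9.27 untransfected in Hdh109/109 cells, against 9.95 and 9.73, 9.90 and 10.04, and 10.15 and 10.07 in those states of Hdh7/7 cells. All Hdh109/109 arrays were below all Hdh7/7 arrays (average -0.53 ± 0.089, adjusted p = 0.000555), and within states it was called untransfected and with empty vector. Atp6v0b, a proteolipid of the rotor ring, read 10.86 and 11.00 with DNRest, 10.94 and 10.37 with empty vector and 10.48 and 10.52 untransfected in Hdh109/109 cells, against 10.95 and 11.11, 11.00 and 10.93, and 11.21 and 11.33 in those states of Hdh7/7 cells. It was called lower untransfected, at -0.77 ± 0.18 (adjusted p = 0.00738), and on average, at -0.39 ± 0.10. Atp6v0d1, which joins the rotor to the stalk, read 11.67 and 11.79 with DNRest, 11.83 and 11.95 with empty vector and 11.64 and 11.63 untransfected in Hdh109/109 cells, against 10.89 and 10.86, 10.82 and 10.79, and 11.59 and 11.74 in those states of Hdh7/7 cells. It was higher in Hdh109/109 cells with DNRest by 0.86 ± 0.12 and with empty vector by 1.09 ± 0.12 (adjusted p = 0.000425 and 7.95e-05), while the untransfected groups overlapped. Its other 2 probes were also called higher on average.

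Of the V1 sector, Atp6v1g2, the stator subunit G form known mainly from neurons, read 5.41 and 5.28 with DNRest, 5.49 and 5.35 with empty vector and 5.39 and 5.60 untransfected in Hdh109/109 cells, against 7.06 and 6.89, 6.96 and 6.79, and 6.76 and 6.88 in those states of Hdh7/7 cells. It was above background on 0 Hdh109/109 arrays and on the 6 Hdh7/7 arrays, and was at least 2.00-fold lower in Hdh109/109 cells with DNRest, 2.16-fold with empty vector and 1.80-fold untransfected (limma adjusted p = 1.45e-05, 2.87e-05 and 6.17e-05). It thus passed the detection filter only through Hdh7/7 arrays, and nothing is concluded from these p-values. Neuron markers were read beside Atp6v1g2: Map2 and Tubb3 were detected in both lines, and the other 5 of 7 (Rbfox3, Snap25, Syt1, Nefl and Elavl3) were above background on 0 arrays. Their part in the Atp6v1g2 level was not tested. Atp6v1d, a rotor stalk subunit, read 7.70 and 7.62 with DNRest, 7.94 and 7.96 with empty vector and 8.31 and 8.10 untransfected in Hdh109/109 cells, against 8.37 and 8.31, 8.39 and 8.26, and 8.82 and 8.87 in those states of Hdh7/7 cells. It was lower in Hdh109/109 cells within each state with no overlap there, and, at -0.56 ± 0.073 on average (adjusted p = 9.73e-05). Atp6v1f, another rotor stalk subunit, read 12.45 and 12.42 with DNRest, 12.36 and 11.72 with empty vector and 12.17 and 12.15 untransfected in Hdh109/109 cells, against 12.78 and 12.83, 12.72 and 12.74, and 12.65 and 12.91 in those states of Hdh7/7 cells. All its Hdh109/109 arrays were below its Hdh7/7 arrays (average -0.56 ± 0.11, adjusted p = 0.00155). The accessory protein Atp6ap1 read 13.09 and 13.19 with DNRest, 13.03 and 13.28 with empty vector and 12.79 and 12.81 untransfected in Hdh109/109 cells, against 13.23 and 13.15, 13.25 and 13.36, and 13.87 and 13.42 in those states of Hdh7/7 cells. It was lower untransfected, at -0.85 ± 0.16 (adjusted p = 0.00297) and was called in neither transfected state. Atp6v1b2, the common form of the nucleotide-binding B subunit, was the only V-ATPase gene besides Atp6v0d1 called higher on average.

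Where a gene had several tested probes, they could disagree. Of 17 such genes, 12 had the same fitted sign on all their probes in the average line comparison, and 1, the neuraminidase Neu1, had calls in opposite directions (0.45 for the brightest probe and -0.38 for the other). For Ctsa the second probe differed by -0.98 and was called, against 0.00 for the brightest.

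The empty vector was next set against no transfection. Several hydrolase genes were lower with empty vector in Hdh7/7 cells: 0 probes were higher and 19 lower (27.5%, against 15.7% of all probes tested, 6.17% higher and 9.5% lower), or 14 of 49 genes. These were Arsa, Arsb, Atp6v0d1, Atp6v1d, Ctsb, Ctsz, Gla, Grn, Hexa, Lamp2, Lipa, Naglu, Psap and Tpp1, and the median difference over all 49 genes was -0.35, against -0.05 over all genes. By role they were 3 of 8 proteases, 5 of 13 glycosidases and sulfatases, 2 of 5 lipid hydrolases and saposins and 2 of 15 V-ATPase genes. In Hdh109/109 cells 1 probe was higher and 0 lower (1.45%, against 2.92% of all probes, 1.96% higher), and the median was 0.21, against 0.01. The called probe was that of Ctsk, higher with empty vector by 0.62 ± 0.13 (limma, adjusted p = 0.0316). Of the 69 probes, 19 had an unadjusted p under 0.05 in Hdh109/109 cells, and the share of all probes at that level is not set beside this.

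The 8 largest fitted differences in Hdh7/7 cells were those of Arsa, Grn, Ctsz, Atp6v0d1, Hexa, Lipa, Naglu and Tpp1. Arsa was at 8.60 and 8.38 with empty vector, against 9.54 and 9.67 untransfected, a difference of -1.12 ± 0.14 (adjusted p = 0.00145). Grn was at 10.79 and 10.83 with empty vector, against 11.74 and 11.77 untransfected (-0.94 ± 0.13, adjusted p = 0.00202). Atp6v0d1 was at 10.82 and 10.79 with empty vector, against 11.59 and 11.74 untransfected (-0.86 ± 0.12, adjusted p = 0.00233). In each of these genes the groups were separated by far more than the gap between their 2 arrays. Hexa fell by 0.81, Lipa fell by 0.81, Naglu fell by 0.75 and Tpp1 fell by 0.72 on the log2 scale, without overlap between the groups. Ctsz was not above background on either empty vector array, so it has no fold here, and it lost its call under median scaling. The corresponding differences in Hdh109/109 cells were 0.24 ± 0.14 for Arsa, 0.45 ± 0.13 for Grn, 0.25 ± 0.12 for Atp6v0d1 and 0.39 ± 0.16 for Naglu, of which 0 were called.

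These counts depend on few arrays. Except where given, the share of all probes called in the same run is not set beside them. A loss of calls in these genes is then not told apart from a general one. The count of 19 in Hdh7/7 cells was 5 without Hdh7/7 untransfected replicate 1, 8 without Hdh7/7 untransfected replicate 2, 9 without Hdh7/7 empty vector replicate 2 and 0 when the 4 arrays were fitted alone, where 0.00657% of all probes were called. Without the 2 arrays of highest background, 1 of which is in the Hdh7/7 empty vector group, it was 9, and Arsa, Atp6v0d1, Grn, Hexa, Lipa and Tpp1 kept their calls. Under median scaling 1 probe was higher and 19 lower.

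The difference between the lines in the change with empty vector was tested directly. It was positive (higher change in Hdh109/109 cells) for 20 of 69 probes and negative for 0, 29% against 12% of all probes tested (7.13% positive and 4.91% negative), and for 16 of 49 genes. The largest were Grn at 1.39 ± 0.18, Arsa at 1.35 ± 0.20, Naglu at 1.13 ± 0.23, Atp6v0d1 at 1.12 ± 0.17, Ctsa at 0.99 ± 0.25 and Asah1 at 0.96 ± 0.20 (SE, limma adjusted p = 0.00175, 0.00322, 0.0147, 0.00413, 0.0328 and 0.0174). Ctsa and Asah1 were called in neither line alone, with changes of 0.64 ± 0.18 and 0.58 ± 0.14 in Hdh109/109 cells, against -0.35 ± 0.18 and -0.38 ± 0.14 in Hdh7/7 cells. The median difference was 0.61 over the 49 genes, against 0.08 over all genes. Grn, Arsa and Atp6v0d1 kept the call in every alternative run, and the other 13 genes did not. The count of 20 was 5 without Hdh7/7 untransfected replicate 1, 8 without Hdh109/109 untransfected replicate 1, 11 without Hdh109/109 empty vector replicate 2 or either Hdh109/109 DNRest array, 12 without Hdh7/7 untransfected replicate 2, Hdh7/7 empty vector replicate 2, either Hdh7/7 DNRest array or both arrays of highest background, and 13 without Hdh109/109 untransfected replicate 2. It was 17 under median scaling. Here too the share of all probes called in the same run is not set beside the counts, so a general loss of calls is not told apart.

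DNRest was set against no transfection as a comparison added after the data were seen. In Hdh7/7 cells 0 probes were higher and 24 lower (34.8%, against 17.1% of all probes tested, 9.48% lower), or 19 genes, and in Hdh109/109 cells 0 were higher and 1 lower, for Atp6v1d (1.45%, against 4.63%, of which 2.4% higher and 2.23% lower). These comparisons use the same untransfected arrays as those of the empty vector, so the results are not independent of each other. The Hdh7/7 changes were -1.08 ± 0.14 for Lipa, -1.08 ± 0.14 for Arsa, -1.04 ± 0.16 for Naglu, -0.99 ± 0.14 for Hexa, -0.91 ± 0.13 for Grn and -0.79 ± 0.12 for Atp6v0d1 (SE, limma adjusted p = 0.00142, 0.00142, 0.00324, 0.00232, 0.00192 and 0.00281), and these 6 calls held in every alternative run. The difference between the lines was positive for 15 probes and negative for 1 (23.2%, against 9.25%, of which 5.35% positive and 3.9% negative). The counts of alternative runs that follow are given without the share of all probes called in the same run, so a general loss of calls is not told apart. The Hdh7/7 count of 24 was 8 without Hdh7/7 untransfected replicate 1 or Hdh7/7 DNRest replicate 1, 9 without Hdh7/7 DNRest replicate 2, 12 without Hdh7/7 untransfected replicate 2 and 27 without the 2 arrays of highest background. The difference count of 16 was 3 without Hdh109/109 DNRest replicate 2, 4 without Hdh7/7 DNRest replicate 2, 5 without either Hdh7/7 untransfected array, 6 without Hdh7/7 DNRest replicate 1 or Hdh109/109 DNRest replicate 1, 7 without either Hdh109/109 untransfected array and 9 without the 2 arrays of highest background.

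**Figure D4:**
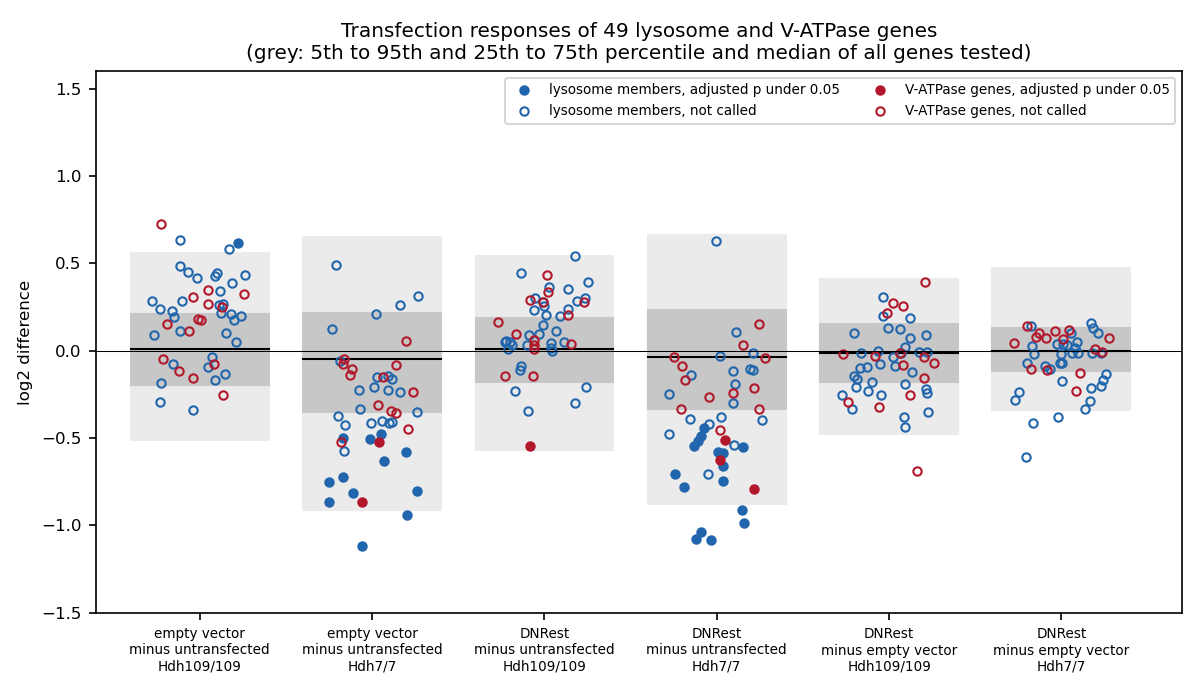
Fitted log2 difference of the 49 genes (points; filled where the adjusted p is under 0.05) for 3 transfection comparisons in each line, with grey bands for all 8487 genes tested. The filled points are below 0 in Hdh7/7 cells with empty vector (14 genes) and with DNRest (19 genes) against no transfection, and 0 points are filled for DNRest against empty vector.

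DNRest against its own control, the empty vector, gave 0 called probes of 69 in Hdh109/109 cells (against 0.138% of all probes tested, limma) and 0 in Hdh7/7 cells (against 0.0985%). At an unadjusted p under 0.05 there were 10 probes in Hdh109/109 cells and 2 in Hdh7/7 cells, and the smallest adjusted p were 0.353 and 0.566. The gene medians were -0.08 in Hdh109/109 cells and -0.02 in Hdh7/7 cells, against -0.01 and 0.00 over all genes. In Hdh109/109 cells the accessory protein Atp6ap2, at -0.69 ± 0.21, had the largest difference and was not called. The 95% interval for Atp6v0e2 in Hdh7/7 cells, where it was bright, was -0.34 to 0.32, and for Grn it was -0.29 to 0.28 in Hdh109/109 cells and -0.25 to 0.31 in Hdh7/7 cells. The difference between the lines in the DNRest response was called for 0 probes (against 0% of all probes, and 4 probes at an unadjusted p under 0.05). When single arrays were left out, calls in Hdh7/7 cells and in the difference between the lines appeared only without Hdh7/7 empty vector replicate 1. That run leaves in the group only replicate 2, whose median raw signal of 161 was the highest. Nothing is concluded from those calls.

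A further 5 lists of lysosomal and autophagy genes were read in the average line comparison, per gene. Of 10 other lysosomal hydrolases tested, 6 were higher and 2 lower in Hdh109/109 cells (median 0.38), of 14 other lysosomal membrane proteins 8 and 3 (0.37), of 21 autophagy genes 9 and 1 (0.23), of 14 sorting and tethering genes 5 and 5 (0.09), and of 12 Ragulator, RAG and MiT genes 3 and 4 (-0.12), while 30% of all genes were higher and 30.8% lower. Galns, a sulfatase of keratan sulfate, was higher by 1.14 ± 0.13, and Sumf1, which activates sulfatases, by 0.96 ± 0.15, while Epdr1, an ependymin-related lysosomal protein, differed by -1.05 ± 0.07. The cholesterol carrier Npc2 was higher by 0.99 ± 0.082 and Laptm4b by 1.12 ± 0.082, and Cln3, a membrane protein lost in juvenile Batten disease, differed by -1.31 ± 0.12. Map1lc3b, which coats autophagosomes, was higher by 1.26 ± 0.087 and the fusion protein Stx17 by 0.63 ± 0.12, whereas the autophagosome factor Vmp1 differed by -0.78 ± 0.08. The sorting receptors differed in opposite directions, with -1.11 ± 0.077 for sortilin (Sort1), 0.74 ± 0.11 for the mannose 6-phosphate receptor Igf2r and 0.81 ± 0.078 for the adaptor Gga2. Rragd, a RAG GTPase, differed by -1.81 ± 0.085, the kinase Mtor by -0.79 ± 0.12 and the factor Mitf by 0.51 ± 0.10, each past the limma test.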

How the data were processed

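Illumina mouse BeadChip arrays measured RNA of 12 samples in 6 groups of 2, grouped by their titles although the source name gives the other genotype on 6. The deposited table gives bead intensity, not normalized per the file headers, and detection p-values per probe. The submitters' processing notes name limma without a version or role. The authors' log2 values in the series matrix were not used, because matched by probe name they correlated with the bead table at only 0.0175 to 0.0341 (Spearman). Platform annotation gave 28471 probes 1 symbol, 10 several and 16024 none.

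Here limma's neqc corrected background by means of the detection p-values, added 16, quantile normalized the arrays and took log2 (version 3.58.1, R 4.3.3). The 15224 probes detected (p below 0.01) on 2 or more arrays entered 1 fit with a mean per group and 6 residual degrees of freedom, with moderated statistics (eBayes) and Benjamini-Hochberg adjustment over all probes. Calls have an adjusted p under 0.05. A gene is represented by its brightest tested probe. The number of arrays, 2 per group, limits the precision. The fit was tested on simulated data for the untransfected line comparison. It recovered 48 of 100 probes changed by 1 on the log2 scale and 7 of 100 changed by 0.5, with 0 false calls. Only these probes were changed among 15224, whereas 35.6% of all probes were called in the real comparison. The adjustment was thus stricter in the simulation, and its rates of recovery and of false calls do not carry over. A missing call is still no sign that a gene did not change.

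The members, gene and marker lists and named genes were chosen with earlier results of these data known. Values per array are given for called genes among the 8 highest and 8 lowest differences of each line comparison and the 8 largest of each transfection comparison, for Atp6v0e and for Asah1 and Ctsa, the last 2 chosen after their values were seen. Replicate numbers did not pair samples: deviations from group means correlated above 0.1 in 2 of 15 pairs of groups (-0.44 to 0.36). Alternatives covered scaling, background correction, offset, detection filter, replicate block, array weights, groups fitted alone and each array left out. The comparisons of DNRest with no transfection, and the setting without the 2 arrays of highest background, were added after seeing the data.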

Additional observations from a re-analysis of the deposited data

Results flagged for a closer look

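The change with empty vector against no transfection differed between the lines for 16 genes by the direct test in the limma fit (adjusted p under 0.05), of 49 tested, while 14% of all genes were called, 8.95% positive and 5.05% negative. The difference, change in Hdh109/109 cells minus change in Hdh7/7 cells on the log2 scale, was 1.39 for Grn, 1.35 for Arsa, 1.13 for Naglu, 1.12 for Atp6v0d1, 0.99 for Ctsa, 0.96 for Asah1, 0.92 for Ctsb and 0.90 for Tpp1. It was 0.84 for Neu1, 0.83 for Ctsc, 0.81 for Lamp2, 0.77 for Glb1, 0.77 for Lipa, 0.75 for Gaa, 0.70 for Arsb and 0.69 for Psap. All 16 were positive. Grn, Arsa and Atp6v0d1 were called under every alternative run, and the other 13 lost the call in at least 1. Without the 2 arrays of highest background, Arsa, Atp6v0d1, Ctsa, Grn and Tpp1 kept it. The part of that background in the differences was not tested.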

How the results depend on the processing

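Counts below are of the 69 probes, without the share of all probes called in the same run. They therefore do not tell a change in these genes from a general change in the number of calls. Leaving out 1 array gave 13 to 31 line calls untransfected, 28 to 35 with empty vector, 23 to 39 with DNRest and 39 to 45 on average. For empty vector against no transfection it gave 0 to 3 in Hdh109/109 cells, 5 to 24 in Hdh7/7 cells and 5 to 26 for the difference between the lines. For DNRest against no transfection it gave 0 to 3, 8 to 27 and 3 to 23, for DNRest against empty vector 0 to 0 and 0 to 4, with 0 to 4 for their difference, and 5 to 5 paralog pairs. Under median scaling Asah1 and M6pr turned to -0.00523 and -0.12 in the average line difference, and empty vector in Hdh109/109 cells gave 0 calls. In Hdh109/109 cells the 1 call with empty vector became 9 without background correction, 3 with an offset of 50, 5 among probes detected on all 12 arrays, 0 with array weights, 0 with the groups alone and 4 without the 2 arrays of highest background. The 1 call with DNRest against no transfection became 3, 2, 3, 5, 0 and 0 in those settings. Probes detected on all 12 arrays left 4 paralog pairs, of which 3 passed. With no detection filter the untransfected line count was 18. Fitted alone, the empty vector line count was 19, empty vector in Hdh7/7 cells 0, and the differences between the lines 6 for empty vector and 25 for DNRest against no transfection. With array weights these last 3 were 12, 9 and 27, and without the 2 arrays of highest background 9, 12 and 9. With the replicate number as a block, which the data do not bear out as a pairing, the difference between the lines was called for 13 probes with empty vector and 7 with DNRest against no transfection, and 0 with empty vector and 0 with DNRest against no transfection in Hdh109/109 cells. Where no other setting is named, the cause of these moves was not tested. Probes at background on every array of a group allow only bounds.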

Other observations

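In Hdh7/7 cells the wider lysosomal lists also held genes lower with empty vector than without transfection (limma, adjusted p under 0.05, per gene). Of 14 other lysosomal membrane proteins tested, 0 were higher and 6 lower (median log2 difference -0.48), and of 10 other lysosomal hydrolases 0 were higher and 3 lower (-0.32). Of 21 autophagy genes 0 were higher and 3 lower (-0.30), of 14 sorting and tethering genes 0 and 2 (-0.33), and of 12 Ragulator, RAG and MiT genes 0 and 1 (-0.22). Over all 8487 genes 6.63% were higher and 11.3% lower, with a median of -0.05.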
